A study of Mus musculus with 4 samples.

Results

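The ubH2A-only peaks away from promoters are 2279 regions of mouse embryonic stem (mES) cell chromatin that were called as peaks of ubiquitylated histone H2A (ubH2A) and of nothing else in the same experiment. They are 34.3% of the 6642 analysed ubH2A peaks (95% Wilson interval 33.2% to 35.5%), and the deposited lists of the 4 libraries hold 30047 analysed peaks in all. A ubH2A peak was taken when the listed overlap with Dzip3, Ring1B and input DNA peaks was 0 for each and when it lay more than 4 kb from every transcription start site (TSS) of a protein-coding gene. The members were thus chosen by measured values, namely the ubH2A peak calls, the listed overlap percentages and the distance to a TSS, which are given only as descriptions. Both limits are lines drawn through a continuum, and a peak without a called Ring1B or Dzip3 peak can still hold reads of those libraries.

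The study examined whether Dzip3 works together with Ring1B at developmental genes, and mapped Dzip3, Ring1B and ubH2A by ChIP-seq. The ubH2A, Ring1B and Dzip3 ChIP libraries and the input DNA library all came from E14 mES cells of strain 129/Ola at passage 3-5. The cells were grown in 2i + LIF, with the MEK inhibitor PD0325901 at 1 µM, the GSK inhibitor CHIR99021 at 3 µM and LIF at 1000 U/ml, and were fixed in 1% formaldehyde. The antibodies were raised in rabbits, and the study's methods describe cutting with micrococcal nuclease where the sample labels describe a Picoruptor.

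Each target had 1 library, so no difference between libraries has a replicate error, no test was made, and the intervals cover counting error only. The library sizes implied by the lists were between 48.3 and 67 M reads, with ubH2A the largest, and the lowest height of a listed peak was 32 extended reads for ubH2A, 31 for Ring1B, 33 for Dzip3 and 15 for input DNA. A malformed row hides ubH2A peaks beyond position 85281399 of chromosome 1, on all of chromosome 10 and before position 119891698 of chromosome 11, and these were not analysed here. Peak lists hold no expression values, so the cell type could not be checked against marker genes.

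In vertebrate cells a single ubiquitin can be attached to a lysine near the tail end of histone H2A. Ring1B, the catalytic subunit of polycomb repressive complex 1, is the best known enzyme that adds it, and Dzip3 is another E3 ligase with that activity, while deubiquitylases such as USP16 remove it. In ES cells the mark is best known from the CpG-rich promoters of silent developmental regulators, and the regions described here were chosen to lie elsewhere.

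The DNA of the tallest of these peaks can be read directly, and the first set gives 4 of the 6 members with the greatest height, a pair with a tandem repeat and a pair without. Of the other two, the Six3 peak is an array of the same unit as the Gdnf peak. Each line gives the central 160 bases of a peak on the plus strand of mm9, named by the nearest protein-coding gene. Capitals mark perfect tandem repeats (a unit of up to 12 bases repeated over a stretch of at least 24) and strictly alternating runs of a purine and a pyrimidine of at least 20 bases, and lower case marks the rest.
Hhex, chr19:37519071-37519230: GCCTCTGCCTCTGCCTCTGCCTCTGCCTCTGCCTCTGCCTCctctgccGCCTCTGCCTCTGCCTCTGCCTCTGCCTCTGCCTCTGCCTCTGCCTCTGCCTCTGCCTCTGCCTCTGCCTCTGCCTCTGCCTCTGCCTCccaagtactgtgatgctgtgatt
Gdnf, chr15:7789648-7789807: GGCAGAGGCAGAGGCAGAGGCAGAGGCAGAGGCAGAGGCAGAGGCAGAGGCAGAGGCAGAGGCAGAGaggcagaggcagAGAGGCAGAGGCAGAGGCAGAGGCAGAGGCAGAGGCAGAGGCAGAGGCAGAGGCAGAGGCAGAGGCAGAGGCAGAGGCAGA
Acvr2a, chr2:47498358-47498517: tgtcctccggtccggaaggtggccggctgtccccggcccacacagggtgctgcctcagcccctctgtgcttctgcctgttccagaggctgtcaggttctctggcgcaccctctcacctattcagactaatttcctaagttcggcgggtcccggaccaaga
Cyp2a4, chr7:27073844-27074003: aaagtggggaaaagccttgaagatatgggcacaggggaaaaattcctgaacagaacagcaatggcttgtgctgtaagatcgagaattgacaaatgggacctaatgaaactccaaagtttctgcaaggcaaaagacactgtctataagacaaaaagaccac
The Hhex and Gdnf peaks were arrays of 1 hexamer, which reads CTCTGC on the strand shown at Hhex and GCAGAG, its reverse complement, at Gdnf. The Acvr2a and Cyp2a4 peaks held no such stretch.

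A second set is shown for a sequence form that many of the members carried. These 3 were chosen after their sequences had been seen: the 2 tallest members of chromosomes other than 18 with an alternating run in their centre, and the member with the longest run.
Grm8, chr6:28117101-28117260: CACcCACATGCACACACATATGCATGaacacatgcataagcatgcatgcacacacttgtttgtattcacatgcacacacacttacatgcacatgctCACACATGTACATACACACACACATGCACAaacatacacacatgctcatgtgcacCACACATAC
Tbx3, chr5:119652820-119652979: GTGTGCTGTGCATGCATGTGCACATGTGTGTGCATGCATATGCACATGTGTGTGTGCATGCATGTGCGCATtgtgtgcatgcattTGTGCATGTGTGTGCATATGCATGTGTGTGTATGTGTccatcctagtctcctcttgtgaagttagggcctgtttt
Cd109, chr9:78487669-78487828: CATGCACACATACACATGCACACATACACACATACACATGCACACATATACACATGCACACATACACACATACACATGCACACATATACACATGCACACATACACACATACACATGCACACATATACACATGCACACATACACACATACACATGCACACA
In each of them C or T followed A or G over long stretches, mostly as CA, TG, CATG and TATG steps. At Cd109 all 200 central bases alternated.

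The last set shows peaks at genes of the pluripotency network.
Esrrb, chr12:87709244-87709403: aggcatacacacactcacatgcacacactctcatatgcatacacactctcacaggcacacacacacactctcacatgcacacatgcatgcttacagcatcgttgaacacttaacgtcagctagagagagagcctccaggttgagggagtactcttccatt
Sox2, chr3:34586978-34587137: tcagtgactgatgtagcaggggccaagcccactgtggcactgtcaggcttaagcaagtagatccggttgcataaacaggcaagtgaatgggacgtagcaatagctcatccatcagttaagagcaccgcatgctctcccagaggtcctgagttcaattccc
The peak in an intron of Esrrb and the one downstream of Sox2 held no stretch that reached the lengths marked in capitals.

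The members were narrow and low. Their median length was 232 bp (95% order-statistic interval 228 to 236, longest 739), and 723 of them (31.7%) had the caller's shortest length of 200 bp. The median height was 35 extended reads or 0.522 RPM (reads per M reads of the library). Most stood close to the caller's limit: 370 members (16.2%) had exactly the lowest listed height of 32 extended reads, 1769 (77.6%) were below 0.6 RPM and 22 reached 1 RPM.

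In the typical member ubH2A reads were the most, Ring1B and Dzip3 reads lay close together and input reads were the fewest. A median member held 72 ubH2A reads (interval 71 to 73), 28 Ring1B reads (27 to 29), 26 Dzip3 reads (25 to 27) and 6 input reads. Scaled to library size these were 1.07 RPM for ubH2A, 0.541 for Ring1B, 0.488 for Dzip3 and 0.124 for input DNA. The ubH2A value exceeded the Ring1B value in 2207 members (96.8%) and the Dzip3 value in 2209 (96.9%), in peaks that were chosen as called for ubH2A alone.

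Summed over all members, ubH2A gave 178319 reads, Ring1B 68861, Dzip3 65025 and input DNA 18583. Scaled to library size the sums were 6.91 times input for ubH2A, 3.46 times for Ring1B and 3.17 times for Dzip3. The absence of a called Ring1B or Dzip3 peak was therefore not an absence of reads. Scaled for library size, Ring1B was at least 2 times input in 1701 members (74.6%, against 67.3% of all ubH2A peaks). Dzip3 was so in 1610 (70.6%, against 65.5% of all). The lack of an input peak, which chose the members, favours low input reads, so no excess over other peaks is read from these counts. No member lacked reads of both Ring1B and Dzip3, which allows a share of up to 0.132% as 3 counts of the total (upper Wilson bound 0.168%). Ring1B reads were 0 in 11 members and Dzip3 reads were 0 in 29. A ubH2A value at least 2 times that of both Ring1B and Dzip3 was found in 798 members (35.0%, 33.1% to 37.0%), against 15.9% of all ubH2A peaks. The share was 35.3% in ubH2A-only peaks within 4 kb of a TSS. The lack of a called Ring1B or Dzip3 peak, which chose the members, favours this outcome, so nothing is read from the count.

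The proportions were similar near promoters. The 411 ubH2A-only peaks within 4 kb of a TSS gave 7.83 times input for ubH2A, 3.95 for Ring1B and 3.74 for Dzip3. The 1833 ubH2A peaks away from promoters that overlap a Ring1B or Dzip3 peak but no input peak gave 6.86 times input for ubH2A, much as the members did, against 9.42 for Ring1B and 7.76 for Dzip3, where the overlap itself chose the high values. The reverse case is seen in 1759 Dzip3-only peaks away from promoters. There Dzip3 stood at 11.3 times input and the uncalled libraries at 3.75 (ubH2A) and 4.75 (Ring1B), so each type of single-library peak carried reads of the other 2 ChIP libraries above input. None of the 4 libraries is a ChIP with control immunoglobulin, so reads that any antibody would bring down were not measured.

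**Figure D1:**
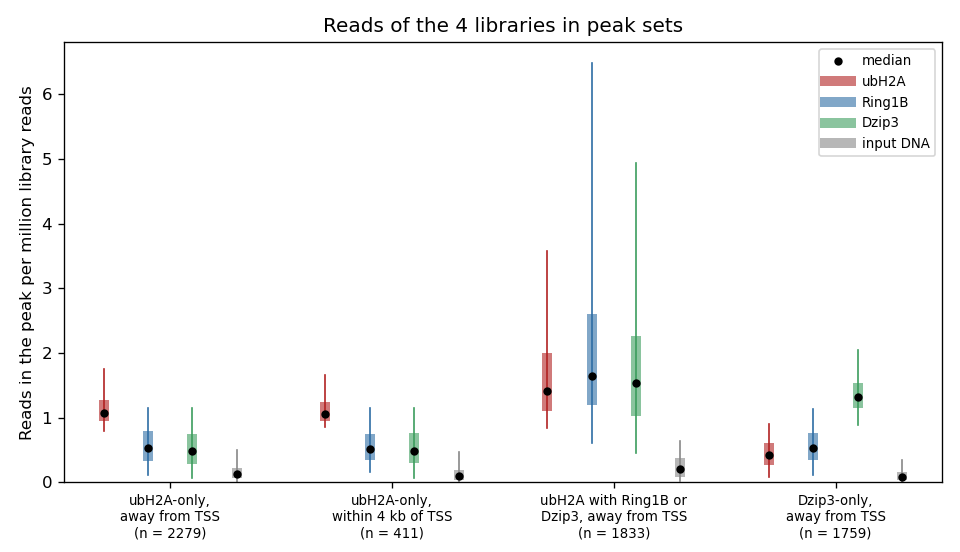
Reads in the peak scaled to library size (RPM), for ubH2A, Ring1B, Dzip3 and input DNA in 4 sets of peaks. Points are medians, thick bars span the 25th to 75th and thin lines the 5th to 95th percentile of peaks. In the ubH2A-only peaks away from TSSs the medians are 1.07 for ubH2A, 0.541 for Ring1B, 0.488 for Dzip3 and 0.124 for input DNA.

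Some members held as many Ring1B or Dzip3 reads as called peaks of those libraries. Among members of at most 300 bp, 176 of 1749 (10.1%) held 48 or more Ring1B reads, which is the 5th percentile of Ring1B peaks of that length without an input peak. For Dzip3, 216 members (12.3%) held 46 or more reads, the like limit of Dzip3 peaks. Only 9 and 6 of the 1749 reached the median of those called peaks, which was 68 reads for Ring1B and 69 for Dzip3. The members were chosen for having no called Ring1B or Dzip3 peak, so that most lie below the called peaks follows from the choice.

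The listed fold over input had a median of 7.35 (interval 7.06 to 7.64). It was at least 2 in 2192 members (96.2%, against 74.9% of all ubH2A peaks) and at least 5 in 1537 (67.4%, against 48% of all). Overlap with an input peak was part of the choice, so nothing is read from these counts. The fold could be rebuilt from the reads as (ubH2A reads + 1) / (1.53 × input reads + 1), with a scale of 1.53 where the library sizes differ by 1.39 times. For the 157 members (6.89%) without an input read it is simply the ubH2A reads plus 1, and the highest fold of the members, 131, is of this kind.

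The 6 tallest members stood far above this typical level. The tallest lay 7.76 kb downstream of the TSS of Hhex, a homeobox gene of endoderm and blood development, at chr19:37518985-37519317, outside annotated genes. It reached 11.5 RPM with 1539 ubH2A reads, 61 Ring1B reads, 46 Dzip3 reads and 10 input reads, a fold of 94.6. Tandem repeats covered 75% of its central 200 bases. Its neighbours were strong peaks of the other libraries: a Dzip3 peak began 229 bp further on, with 865 Dzip3, 392 Ring1B, 104 ubH2A and 1 input reads. A Ring1B peak that overlaps that Dzip3 peak lay 289 bp away, with 382 Ring1B reads. This member counted as ubH2A-only because its own bases touched neither, and it held by far the most ubH2A reads of the members.

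The second tallest member lay 48.4 kb upstream of Six3, a homeobox gene of the forebrain and eye, at chr17:85964136-85964598. It held 548 ubH2A, 50 Ring1B, 32 Dzip3 and 7 input reads. The same GCAGAG unit as at Gdnf filled 77% of its centre. The Gdnf peak lay at chr15:7789534-7789923, 28.5 kb downstream of the TSS of this growth factor of neurons and kidney, and held 226 ubH2A, 38 Ring1B, 10 Dzip3 and 2 input reads. Tandem repeats covered 94% of its centre. In both peaks the typical 31-base word occurs 26073 times in the genome, so a stretch of that length inside the repeat cannot be placed by its sequence alone.

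The member assigned to Acvr2a, an activin receptor, lay 1171 kb upstream of it at chr2:47498289-47498587, with 221 ubH2A, 2 Ring1B, 6 Dzip3 and 2 input reads. Its sequence held 15 CpG sites and no tandem stretch, but its typical word occurs 1075.5 times (the mean of the 2 middle values). A peak in an intron of Greb1l at chr18:10545617-10546027 held 269 ubH2A, 56 Ring1B, 31 Dzip3 and 8 input reads. It lay 88 bp from a Dzip3 peak with 60 Dzip3 reads. The sixth, 18.2 kb upstream of Cyp2a4, a steroid hydroxylase gene, was 200 bp long at chr7:27073824-27074024. It held 98 ubH2A reads, all of them in the window of its highest point, 18 Dzip3 reads and 0 Ring1B and input reads, where 0 Ring1B reads allow up to 3 reads or 0.058 RPM. Its typical word occurs 10454 times in the genome. Of the 6, the Greb1l peak was the only one whose typical word has 2 or fewer copies.

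**Figure D2:**
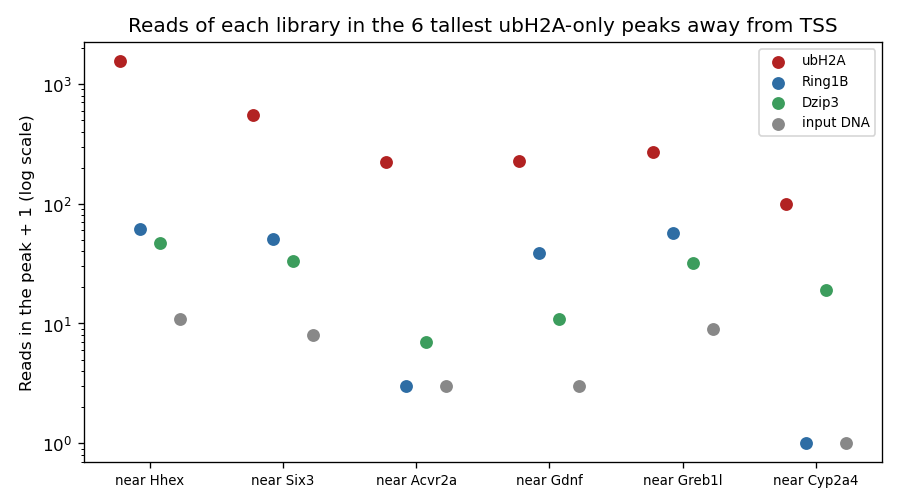
Reads of each library in the 6 tallest ubH2A-only peaks away from TSSs, on a log axis after adding 1 read, named by the nearest protein-coding gene. The ubH2A value is the highest in each peak, from 98 reads near Cyp2a4 to 1539 near Hhex, and no other library passes 61 reads.

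The largest folds among members with at least 1 input read were found at Hhex, Gdnf and Acvr2a (above) and at 3 more peaks with 1 input read each. The peak 31.8 kb upstream of Grm8, a metabotropic glutamate receptor, held 180 ubH2A, 42 Ring1B and 21 Dzip3 reads for a fold of 71.6. The peak nearest to Nphp4, a gene of the primary cilium, lay 378 kb from its TSS and held 134 ubH2A, 64 Ring1B and 58 Dzip3 reads for a fold of 53.4. The peak 60.1 kb downstream of the TSS of Mn1, a transcriptional regulator, held 132 ubH2A, 64 Ring1B and 47 Dzip3 reads for a fold of 52.6. All 3 peaks held an alternating run, of 30, 21 and 38 bases, and a typical word found once in the genome. With a single input read, the size of such a fold rests on that read.

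The 3 longest members were broad without being tall. They lay in an intron of Kcnk9, a potassium channel gene, with 739 bp at chr15:72370234-72370973, near Ect2, a regulator of cytokinesis, with 698 bp, and near Eya1, a co-activator of ear and kidney development, with 632 bp. The Kcnk9 peak held 204 ubH2A, 57 Ring1B, 112 Dzip3 and 4 input reads. The Ect2 peak held 234 ubH2A, 111 Ring1B, 94 Dzip3 and 16 input reads, and the Eya1 peak held 162, 71, 88 and 6. Their heights were 0.627, 0.776 and 0.701 RPM.

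The peaks on either side of the distance limit are given with their ubH2A, Ring1B, Dzip3 and input reads. Just beyond 4 kb, and so a member, was a peak in an intron of Akr1b8 at 4.022 kb (103 ubH2A, 51 Ring1B, 40 Dzip3 and 12 input reads). The next members were near Gm10323 at 4.071 kb (95, 52, 52 and 24) and in an exon of 4933413G19Rik at 4.092 kb (79, 24, 30 and 6). Just within 4 kb, and so not members, were peaks within Poc1a at 3.999 kb (61, 13, 17 and 6) and Ets2 at 3.99 kb (52, 52, 19 and 0). The third of these lay 3.982 kb from the TSS of Ppfibp1 (67, 16, 20 and 4). Those 3 that were not members were all 200 bp long and held fewer ubH2A reads than the 3 members, which were 243 to 377 bp long.

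With respect to genes, the members were spread over introns and intergenic DNA. Any base in an exon put a peak with exons, and otherwise any base in an intron with introns. By this order 1243 members (54.5%, 52.5% to 56.6%) lay outside annotated genes, 800 (35.1%) in introns of protein-coding genes, 149 (6.54%) in exons of protein-coding genes, 66 in introns and 21 in exons of other genes. Of the 149 in protein-coding exons, 103 touched only coding sequence, 24 only an untranslated part, 18 both and 4 neither. The exon peaks had a median GC content of 57.0% and a fold of 10.3, against 51.4% and 8.24 for peaks in introns and 49.5% and 6.67 for peaks outside genes. Their ubH2A reads were alike, with medians of 71, 71 and 73, and the input reads ran against the fold, with medians of 4, 5.5 and 7. The ubH2A peak calls chose the members, so the alike ubH2A reads are not read as a result.

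Compared with all of the analysed genome over 4 kb from a TSS, protein-coding exons differed most in relative terms. The centre of the peak lay in a protein-coding exon for 4.65% of members (3.86% to 5.59%), against 1.80% of bases of the analysed genome over 4 kb from a TSS. Introns of protein-coding genes took 37.0% (35.0% to 39.0%) against 32.9% of bases, and 54.7% (52.6% to 56.7%) of centres lay outside genes against 62.7%. The ubH2A peaks away from promoters with a Ring1B or Dzip3 peak had 1.31% of their centres in protein-coding exons (0.881% to 1.94%) and 61.5% outside genes (59.2% to 63.7%), intervals that do not overlap those of the members. Exon centres were as frequent or more frequent in the single-library peaks of the other ChIPs away from promoters, at 5.34% for Dzip3-only (4.39% to 6.50%) and 10.7% for Ring1B-only peaks (9.54% to 12.1%). The bases of the genome were not matched to the members in their distance from a TSS. The part of GC content and of this distance in the difference was not tested.

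**Figure D3:**
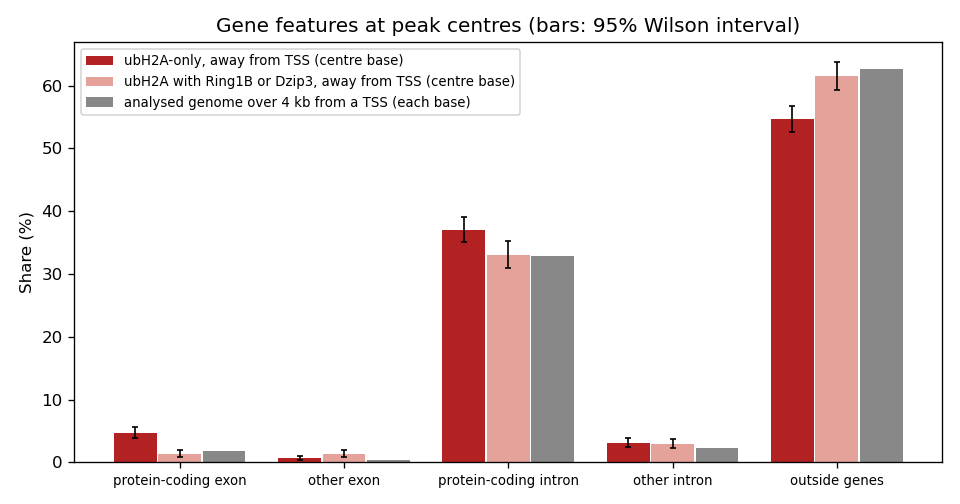
Share of peak centres in each gene feature for the ubH2A-only peaks away from TSSs, for ubH2A peaks away from TSSs with a Ring1B or Dzip3 peak, and share of bases in the analysed genome over 4 kb from a TSS. Error bars are 95% Wilson intervals, and the members stand at 4.65% in protein-coding exons against 1.80% of the bases.

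Members inside genes were mostly alone in their gene. In all, 952 lay within 747 protein-coding genes, 637 of which held 1, and a further 38 lay in long intergenic noncoding RNA genes. Of these genes, 28 held 3 or more. The most were in Gm20388, a gene model of 4435 kb, with 23, in Gm2792 with 14, in C130026I21Rik with 12 and in Gm10406 with 11. Among named genes, Dnahc8, a dynein of the sperm tail, held 7, Trappc9 6, and Adcy5, an adenylyl cyclase, and Camta1 5 each. These counts are not scaled to gene length, which ran from 151 kb for Adcy5 to 802 kb for Camta1 in the last 4.

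Members were found far from genes as well as near them. The median distance to the nearest protein-coding TSS was 36.9 kb (33.6 to 39.6), 360 members (15.8%) lay within 10 kb, 1723 (75.6%) within 100 kb and 72 (3.16%) over 500 kb away. These shares were 15.2%, 73.7% and 3.18% in Dzip3-only and 25.1%, 81.8% and 2.22% in Ring1B-only peaks away from promoters. In all ubH2A peaks, which include those near promoters, they were 24.2%, 77.3% and 3.36%. The distance from members to other peaks was of the same order as that to a TSS. A Ring1B or Dzip3 peak lay within 1 kb of 232 members (10.2%, 9.0% to 11.5%), within 10 kb of 635 (27.9%) and within 100 kb of 1613 (70.8%), with a median of 39.4 kb. The medians were 62.5 kb to the nearest Ring1B peak, 91.0 kb to the nearest Dzip3 peak, 74.2 kb to another ubH2A peak and 161 kb to another member. Distances to other peaks were not set against those of other peak sets.

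Ring1B and Dzip3 reads were higher in members near called peaks of those proteins. The 232 members within 1 kb of such a peak had medians of 39.5 Ring1B and 38.5 Dzip3 reads, while the 666 members with none within 100 kb had 26 and 22. The ubH2A reads were nearer to each other, with medians of 76.5 and 71, and input reads were 8 and 6. The ubH2A peak calls chose the members, so nothing is read from the smaller difference in ubH2A reads. The nearer members were also longer (medians of 253.5 and 230.5 bp) and their typical word had 3 copies against 1, and the part of these in the difference was not tested.

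The number of members per length differed between chromosomes, and some windows held many. Chromosome 17 had the most per length among chromosomes with a complete list, at 1.80 per Mb, and X the fewest, at 0.568 per Mb. Of 1081 windows of 1 Mb with a member, 582 held just 1, and 16 windows with 10 or more held 221 members (9.70%). The 3 windows with the most members were at 166-167 Mb of chromosome X with 21, at 7-8 Mb of chromosome 14 with 18 and at 6-7 Mb of chromosome 17 with 17.

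In these windows the members were not apart from other peaks. The X window also held 54 Ring1B, 51 Dzip3 and 36 input peaks, and its 21 members all had Gm17379 as nearest gene, with a typical word of 6 copies. The chromosome 14 window held 123 input peaks, its members a median of 16 input reads and a fold of 2.89, and its typical word had 21.5 copies. Of the 17 members in the chromosome 17 window, 9 had Dynlt1b, a dynein light chain gene, as nearest gene. Their median input was 15 reads and the fold 3.63, below the 7.35 of all members. No member in these windows had an alternating run. The part of repeated sequence in these 3 windows was not tested.

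Members were richer in G and C than the genome. The median GC content was 50.7% (50.5% to 51.0%), against 41.7% of the analysed genome and a median of 41.5% over 11027222 tiles of 200 bases. For comparison it was 53.8% in the ubH2A-only peaks near promoters, 50.7% in peaks away from promoters with Ring1B or Dzip3, 51.9% in Dzip3-only and 55.8% in Ring1B-only peaks away from promoters, and 38.5% in input-only peaks away from promoters. The high GC content was thus shared by these sets of peaks of the 3 ChIP libraries, none of which overlap an input peak. In the 1920 ubH2A peaks with an input peak the median was 44.1%.

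**Figure D4:**
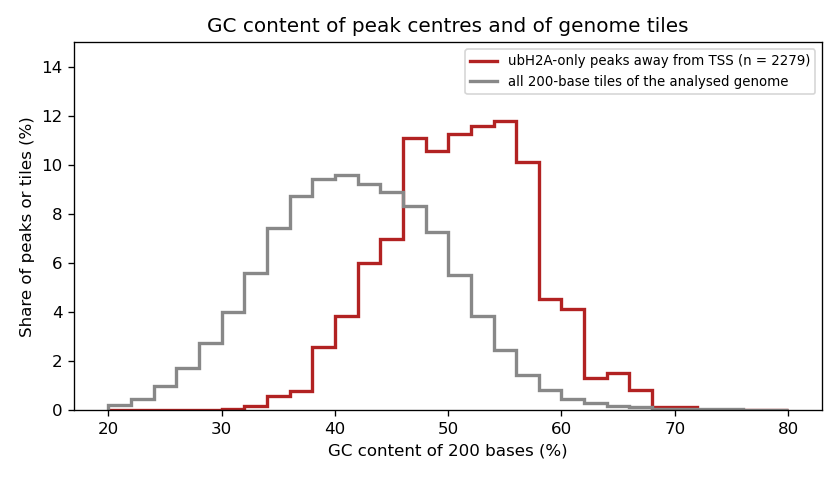
GC content of the central 200 bases of the 2279 ubH2A-only peaks away from TSSs and of all 200-base tiles of the analysed genome, each as a share of its set in bins of GC content. The members lie to the right of the genome, whose tiles have a median of 41.5%, against 50.7% for whole member peaks.

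CpG sites are where polycomb complexes are best known to be recruited. A median member had 0.980 CpG per 100 bases, where the genome pooled over all its bases had 0.827. A median over peaks and a pooled value are unlike measures, and members are also richer in G and C. No excess of CpG is therefore read from them. No CpG was present in 403 members (17.7%, against 17.6% of all ubH2A peaks). The observed number of CpG sites was a median of 0.163 of that expected from base composition, against 0.159 in Dzip3-only and 0.271 in Ring1B-only peaks away from promoters. This ratio was not computed for the genome. GC content over 50% together with a ratio of at least 0.6, the usual bounds of a CpG island, was met by 69 members (3.03%, 2.40% to 3.81%), while it was met by 21.1% of Ring1B-only peaks away from promoters (19.5% to 22.8%), 3.41% of Dzip3-only peaks away from promoters (2.66% to 4.37%) and 6.57% of ubH2A-only peaks near promoters (4.55% to 9.39%).

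A run of at least 20 bases that alternates strictly between purine and pyrimidine, as in the Tbx3 and Cd109 sequences above, was present in the central 200 bases of 355 members (15.6%, 14.1% to 17.1%). Of all genome tiles 3.75% hold one. Within a band of GC content of 46.5% to 55.5%, 145 of 1230 members (11.8%) and 3.06% of tiles did. Members share this form with single-library peaks of the other ChIPs away from promoters, of which 16.1% (Dzip3, 14.4% to 17.9%) and 15% (Ring1B, 13.6% to 16.5%) held a run. The share was 8.62% (7.42% to 9.99%) in ubH2A peaks away from promoters with Ring1B or Dzip3, 1.72% in ubH2A peaks with an input peak and 0.496% in input-only peaks away from promoters. This measure was chosen after sequences of members had been seen.

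The share with a run differed between gene features and with the distance to other peaks. Among members in protein-coding exons 4 of 149 held a run (2.68%, 1.05% to 6.70%), against 17% in introns of protein-coding genes (14.6% to 19.8%) and 16.3% outside genes (14.3% to 18.4%). Within 1 kb of a Ring1B or Dzip3 peak the share was 6.03% (3.63% to 9.87%), between 1 and 100 kb it was 17.7% (15.7% to 19.8%), and it was 14.6% (12.1% to 17.4%) where none lay within 100 kb. With and without a run the median reads were 74 and 72 for ubH2A, 27 and 28 for Ring1B, 21 and 27 for Dzip3 and 5 and 6 for input DNA, so that Dzip3 was the library that differed most. The fold was 8.57 with a run and 7.0 without.

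**Figure D5:**
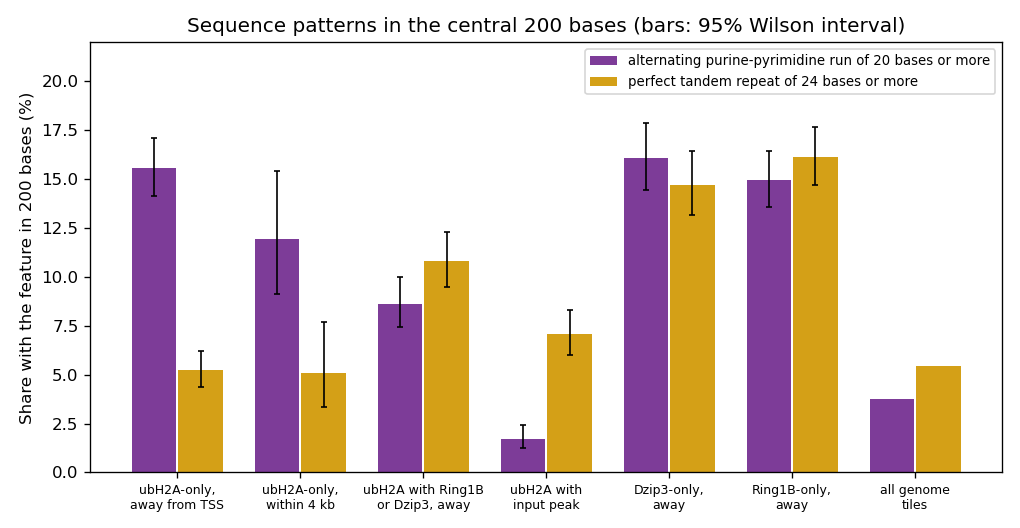
Share of peaks, or of all genome tiles of 200 bases, that hold an alternating purine-pyrimidine run of at least 20 bases or a perfect tandem repeat of at least 24 bases, with 95% Wilson intervals. The ubH2A-only peaks away from TSSs have runs in 15.6% and tandem repeats in 5.22%, against 3.75% and 5.46% of tiles.

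Tandem repeats of the Hhex and Gdnf kind were not a common form among the members. A perfect stretch of at least 24 bases with a unit of up to 12 was found in 119 (5.22%, 4.38% to 6.21%), near the 5.46% of genome tiles, and in 14.7% of Dzip3-only and 16.1% of Ring1B-only peaks away from promoters. The word GCAGAGGCAGAGGCAGAG, searched on both strands in the central 200 bases, was in 3 members (0.132%) and in 0.0250% of tiles. Its share was higher in other peaks away from promoters: 1.14% of Dzip3-only, 1.33% of Ring1B-only and 0.982% of ubH2A peaks with Ring1B or Dzip3.

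Short words gave the same picture of composition. These words were also picked after sequences had been seen or as known binding words, and both strands were searched in the same 200 bases. CATGCACA, a word of the alternating runs, was in 380 members (16.7%, 15.2% to 18.3%) and 1.82% of tiles. The E-box CACGTG was in 163 members (7.15%) and 1.93% of tiles, and in 7.64% of members and 2.83% of tiles within the GC band. It was also in 7.61% of Ring1B-only and 5.74% of Dzip3-only peaks away from promoters. In ubH2A-only peaks near promoters its share was 10.7%. ACCGGAGG was in 52 members (2.28%) and 0.287% of tiles. Away from promoters it was in 2.22% of Ring1B-only peaks, 1.36% of Dzip3-only peaks and 2.67% of ubH2A peaks with Ring1B or Dzip3. The octamer ATGCAAAT, the binding word of Oct factors, was in 29 members (1.27%) and 1.75% of tiles. Within the GC band it was in 7 members (0.569%) and 0.730% of tiles, so its lower share is not read as a lack of Oct sites. The AT-rich AAATTT was in 16 members (0.702%) and 11.2% of tiles, and in 0.488% and 2.87% within the GC band. CACGTG also alternates between purine and pyrimidine, so it can lie within a run. The same order of CATGCACA over AAATTT held in Dzip3-only (14.8% and 1.25%) and Ring1B-only peaks away from promoters (11.7% and 0.684%).

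Many members lay in sequence found once in the genome. With words of 31 bases on both strands, 788 members (34.6%, 32.7% to 36.6%) had no word that occurs elsewhere, and in 916 (40.2%, 38.2% to 42.2%) most words did. No word occurred elsewhere in 17.2% of all ubH2A peaks and 55.0% of ubH2A-only peaks near promoters. Away from promoters this share was 32.8% in Dzip3-only and 42.5% in Ring1B-only peaks. In ubH2A peaks away from promoters with Ring1B or Dzip3, most words were repeated in 75.3% (73.3% to 77.3%), and in ubH2A peaks with an input peak in 83.3%. In Dzip3-only and Ring1B-only peaks away from promoters it was 39.6% (37.4% to 41.9%) and 31.3% (29.4% to 33.2%), at or below the share of the members. The 348 members (15.3%) whose typical word has at least 100 copies had a median of 73 ubH2A reads, 10 input reads and a fold of 4.4. The 1363 members whose typical word is found once had 71 ubH2A reads, 4 input reads and a fold of 9.34. The ubH2A reads differed little between the 2 groups while the input reads differed. Members were chosen by their ubH2A peak calls and most stood close to the caller's limit. Nothing is therefore read from the likeness of their ubH2A reads.

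Of 18958 protein-coding genes in the analysed part of the genome, 3818 (20.1%) had a member within 100 kb of a TSS. A Ring1B peak also lay within 100 kb for 2527 of them (66.2%), against 50% of all genes, and a Dzip3 peak for 1973 (51.7%), against 36.5% of all. Neither was found for 923 (24.2%). These shares were not adjusted for the density of genes.

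Of the pluripotency genes, 8 of 21 analysed (38.1%, 20.8% to 59.1%) had a member within 100 kb, against 20.1% of all genes. Nanog and Dppa3 are counted through 1 and the same peak, so the 8 are not independent, the interval is too narrow and no excess is read from it. A peak in an exon of Nanog, at chr6:122663227-122663436 and 5.62 kb from the TSS, held 66 ubH2A, 35 Ring1B, 61 Dzip3 and 12 input reads, so that Dzip3 stood above ubH2A once reads were scaled to library size. The same peak lay 86.5 kb from the TSS of Dppa3, a maternal and germ line factor. The Esrrb peak, in an intron of this nuclear receptor gene at chr12:87709185-87709464, held 78 ubH2A, 14 Ring1B, 5 Dzip3 and 4 input reads. The Sox2 peak, 37.9 kb downstream of the TSS at chr3:34586928-34587189, held 90 ubH2A, 24 Ring1B, 8 Dzip3 and 2 input reads. At the Esrrb and Sox2 peaks ubH2A stood above both proteins on the same scale.

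The other pluripotency genes had their member further off or in repeated DNA. Utf1 had one at 44.0 kb, in an intron of Kndc1, with 64 ubH2A and 45 Ring1B reads. Tbx3 had one 45.4 kb downstream with 116 ubH2A, 60 Ring1B, 15 Dzip3 and 11 input reads and a typical word of 328 copies. This is not the peak whose sequence is shown above, which has Tbx3 as its nearest gene from 468 kb upstream, with 162 ubH2A, 8 Ring1B, 27 Dzip3 and 5 input reads. Klf2 had a member at 87.6 kb with 51 ubH2A reads and Sall4 one at 98.7 kb with 68.

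Of the polycomb genes, 3 of 24 analysed had a member within 100 kb (12.5%, 4.34% to 31%), an interval that holds the 20.1% of all genes. They were L3mbtl2, of a variant PRC1, with 72 ubH2A, 38 Ring1B, 18 Dzip3 and 2 input reads at 14.0 kb, and the chromobox genes Cbx6, with 65, 31, 28 and 2 reads at 24.7 kb, and Cbx7, with 68, 19, 32 and 0 reads at 34.2 kb. Among enzymes that add ubiquitin to H2A or take it off, 3 of 9 (33.3%, 12.1% to 64.6%, which also holds 20.1%) had one. The member nearest to Usp16, a deubiquitylase, was 27.3 kb from its TSS with 78 ubH2A reads, and the one nearest to the ligase gene Rnf168 was 65.3 kb away with 89. The one nearest to Dzip3 itself was 73.5 kb away with 71 ubH2A reads and a typical word of 3077 copies.

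Developmental regulators, the best known targets of polycomb, had a member in 4 of 36 cases (11.1%, 4.41% to 25.3%), against 20.1% of all genes, which lies inside the interval. The values of 3 of them are given. The peak 29.1 kb upstream of Lhx5 held 71 ubH2A, 8 Ring1B, 8 Dzip3 and 6 input reads. The peak 41.2 kb downstream of the TSS of Sox17 held 61 ubH2A, 47 Ring1B, 9 Dzip3 and 5 input reads. The peak 83.5 kb upstream of Gata6 held 78, 31, 11 and 10 reads. Each of these 3 peaks contained an alternating run, of 32, 44 and 27 bases. The numbers are too small to set against the 15.6% of all members.

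Of the lineage genes that the study names, 3 of 10 had a member within 100 kb (30%, 10.8% to 60.3%, against 20.1% of all genes). Acta1, the skeletal muscle actin, had one at 11.2 kb with 83 ubH2A, 25 Ring1B, 13 Dzip3 and 8 input reads. The one near Rhox6, a germ cell homeobox gene, was 82.9 kb away with 83, 24, 31 and 7 reads, and the one near Bspry was 98.6 kb away with 65, 31, 11 and 13. The last 2 had typical words of 2287 and 1711.5 copies.

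Gene families differed in how often a member was near. Odorant receptor genes had one in 64 of 936 cases (6.84%, 5.39% to 8.64%) and vomeronasal receptor genes in 41 of 318 (12.9%, 9.65% to 17%), both below the 20.1% of all genes, while genes named Zfp, for zinc finger proteins, had one in 88 of 342 (25.7%, 21.4% to 30.6%). Genes of a family lie side by side and share peaks, so they are not independent and the intervals are too narrow. The nearest of the odorant receptor genes were Olfr33 at 4.50 kb and Olfr558 at 7.21 kb, which share a peak of 82 ubH2A reads, Olfr1513 at 4.73 kb, Olfr520 at 6.67 kb and Olfr1112 at 8.65 kb. The nearest of the zinc finger genes was Zfp324, with 71 ubH2A, 45 Ring1B, 19 Dzip3 and 5 input reads in an exon 5.08 kb from its TSS.

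No Hox gene had a member within 100 kb, 0 of 29 analysed, which allows a share of up to 10.3% as 3 counts of the total (upper Wilson bound 11.7%), and these genes lie in a few clusters and are not independent. Of Fox genes 11 of 39 (28.2%, 16.5% to 43.8%) had one, and of Sox genes 4 of 14. Foxm1 was the nearest of the Fox genes at 8.59 kb, through the exon peak of 4933413G19Rik described above, and Foxe1, a thyroid factor, had a peak of 110 ubH2A, 15 Ring1B, 13 Dzip3 and 3 input reads 14.0 kb upstream. Besides Sox2 and Sox17, Sox10 had a member at 39.1 kb with 90 ubH2A reads and Sox21 one at 89.6 kb with 53 ubH2A and 0 input reads. Of 35 protocadherin genes, Pcdha11 and Pcdha3 shared 1 peak.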

How the data were processed

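The data are 4 ChIP-seq libraries of E14 mES cells, 1 for each target and 1 of input DNA. Alignment to mm9 (1 mismatch) and peak calling in each library (Partek, FDR 0.1) were done by the authors. The deposited lists give, per peak, counts of reads of each library and the largest count of extended reads. The height as a signal in RPM, a ratio (scaled fold) over input, p-values of the caller and the percent of the peak covered by other peaks were also deposited by the authors. The p-values were not used.

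Here, rows with 18 fields were kept, which left out 1 row of the ubH2A and 1 of the input list. Library sizes were the extended reads over RPM. Features and TSSs came from GENCODE vM1 on mm9, positions are as listed, and sequences were read from the same build. For a purine-pyrimidine run, tandem repeat or word, the central 200 bases were used, and copies are genome-wide counts of 31-base words. The typical word of a peak is the one of median copy number. Dzip3-only, Ring1B-only and input-only peaks were taken by the same rule and on the same part of the genome.

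No p-values were computed. Shares have 95% Wilson intervals and medians 95% order-statistic intervals, and a count of 0 is also given its limit of 3 counts. The peaks named are the 6 tallest, the 6 with the largest fold and at least 1 input read, the 3 longest, the 3 on each side of the 4 kb limit and the 3 fullest windows of 1 Mb. Each is given with its nearest protein-coding gene, and from each gene list all genes with a peak within 100 kb are covered when there are 8 or fewer and otherwise up to the 5 nearest. The members, lists and named peaks were chosen with earlier results of these data known. The 3 peaks shown for alternating runs, the peaks shown at Esrrb and Sox2, and the sequence measures were chosen after values or sequences had been seen. A peak of one gene list is counted but not reported by itself here. Functions were tested on simulated data. The software was matplotlib 3.10.9, numba 0.67.0, scipy 1.17.1, pandas 2.3.3 and numpy 2.4.6 under Python 3.11.15.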

Additional observations from a re-analysis of the deposited data

How the results depend on the processing

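No paired analysis was possible because every target has a single library. Of 64 values recomputed with another choice, 51 stayed within 1.5 times a count or within the interval of a share or median, among them all 9 for the number of members (1600 to 2455) and all 8 for the median of ubH2A reads. The share outside annotated genes was 52.1% with peaks over 2 kb from a TSS, 58.9% over 10 kb, 51.8% in the stronger 50% of the list by fold and 58.2% with protein-coding genes only. The share in introns was 38%, and 35.7% over 10 kb, 35.2% with protein-coding genes only and 40.1% by the centre base. The median GC content was 50.4% over 10 kb and 52% in the stronger 50%, whose median fold was 10.3 because fold chose them. The 3818 genes within 100 kb became 1688 when only the nearest gene of a peak was counted, 2093 at 50 kb and 389 at 10 kb. A repeat-masked share was not run, since the genome used carries no repeat mask. Depth limits the low members most: a peak of 32 extended reads stood at the limit of the list.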
